A study of Mus musculus with 16 samples.

Results

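The comparison described here is the difference between 2 mouse strains in their response to risperidone: the mean of the DBA/2J risperidone arrays minus that of the DBA/2J control arrays, minus the same difference in A/J. It uses 16 of the 16 arrays and 45037 of the 45141 probe sets, after the 104 control probe sets of the array were left out. Total RNA came from the striatum of male mice aged 7 to 8 weeks, and 1 array was hybridised per mouse. The 4 groups were A/J control, A/J risperidone, DBA/2J control and DBA/2J risperidone mice, with 4 arrays each; the A/J mice are labelled A/JOlaHsd and the DBA/2J mice DBA/2JRccHsd. Treated mice received risperidone at 1 mg/kg by intraperitoneal injection once a day for 3 days, while control mice are labelled untreated, although the protocol common to all samples names saline. Values are log2 expression levels normalised by the authors, and 17097 genes have a probe set that names them alone. A positive value below means a higher, or less negative, response in DBA/2J, and a value of 1 is a 2-fold difference between the responses.

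Risperidone is an antipsychotic drug, an antagonist at the D2 receptor for dopamine and the 5-HT2A receptor for serotonin. In the striatum, D2 receptors sit on one of the classes of GABAergic projection neurons, where they hold back cAMP and ERK signalling. Those pathways switch on immediate early genes such as the Fos and Egr transcription factors, which then drive genes for synaptic proteins, secreted factors and the phosphatases that shut ERK off again. A/J and DBA/2J are inbred strains, so mice of 1 strain are genetically alike while the strains differ at many loci.

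Some arrays stand apart from their labels or from their group. The share of DBA/2J signal over 46 to 49 strain marker probe sets lay between -2.30% and 0.94% in A/J control arrays and between 96.1% and 103.2% in DBA/2J control arrays. A/J risperidone replicates 1, 2, 3 and 4 had shares of 27.9%, 36.2%, 0.58% and 39.1%, and in DBA/2J risperidone replicate 1 it was 87.6%. DBA/2J control replicate 4 correlated with the other arrays at 0.970 to 0.979. Its log2 levels had an SD of 1.77 over probe sets, against 1.84 to 1.85 in the rest of its group. Ttr, the choroid plexus transthyretin gene, ranged from 6.0 to 11.97 over the arrays, and Tcf7l2, a thalamic transcription factor gene, from 5.81 to 8.98. These arrays enter every value below unless it is said otherwise. In bulk tissue, fewer cells of a type and less RNA per cell cannot be told apart. The samples are given as separate mice, and p-values rest on the spread between arrays within groups. Among A/J risperidone arrays that spread also holds their differing DBA/2J shares.

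No probe set passed limma's test of the strain difference at an adjusted p under 0.05 (0% of 45037). The smallest adjusted p was 0.0542, from a probe set that names no gene, and the smallest from probe sets that name a gene was 0.187, for Ank2 and Pde10a. A gene is given below by its probe set with the highest mean level, and over those the smallest adjusted p was 0.207. At an unadjusted p under 0.05 there were 4140 probe sets (9.19%), of which 1788 had a higher response in DBA/2J (3.97%) and 2352 a lower one (5.22%). Among genes the count was 1391 (8.14%), with 824 higher (4.82%) and 567 lower (3.32%). With each array centred on its median, the split over probe sets was 2221 higher and 1904 lower. These shares are the background for every count of list members below. By quartile of level, from the lowest to the highest, 2.27%, 3.88%, 7.75% and 5.38% of genes were higher and 4.14%, 3.93%, 2.76% and 2.43% lower.

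The strain differences were small beside their error. The median difference over genes was 0.02, the middle 90% of genes lay between -0.29 and 0.34, and the median standard error was 0.15. Absolute differences of at least 1 were found for 14 genes and of at least 0.5 for 302. Of the 1391 genes with an unadjusted p under 0.05, 1307 (94.0%) had responses of opposite sign in the strains, against 52.8% of all genes, a share that the selection for a large difference raises by itself. In 787 of them the DBA/2J response was upward and the A/J response downward, and in 520 the reverse held. A strain difference among control mice was called for 248 of the 1391 genes (17.8%), against 3.46% of all genes. The A/J and DBA/2J control arrays enter both comparisons, and A/J risperidone replicates 1, 2 and 4 carry DBA/2J signal. For genes that differ between control mice, an A/J response and that mixed signal cannot be fully told apart. Among the 248 were 4933439C10Rik, Egr2 and Hbegf, with control differences (DBA/2J minus A/J) of 1.175, 0.64 and -0.32. Of the 105 genes named by rule, 65 remained when probe sets called for strain were left out. The limit on mixed signal therefore covers other genes named below as well. The size of a difference often depended on the arrays that stand apart: of 105 genes named by rule, 24 became over 1.5 times smaller or changed sign without A/J risperidone replicates 1, 2 and 4 and 45 did without 5 arrays, which were these 3, DBA/2J control replicate 4 and DBA/2J risperidone replicate 1. With 3 regional marker scores as covariates, the mean levels of projection neuron, choroid plexus and thalamus markers, 23 did so, and with a gene's probe sets averaged 25. Members of those 3 lists are part of the score that they are adjusted for, which can by itself shrink their difference.

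**Figure D1:**
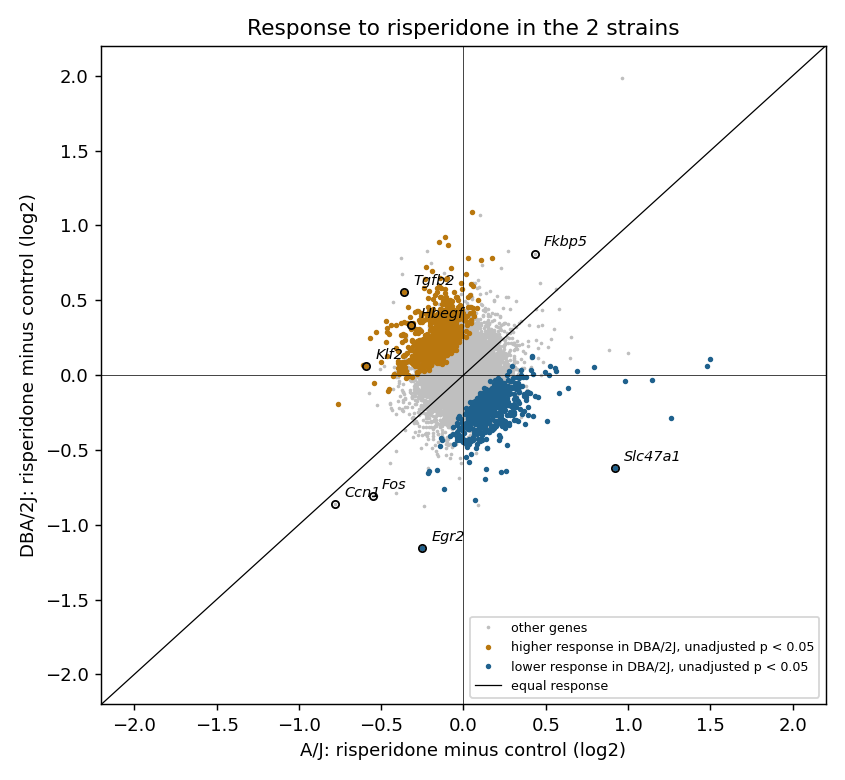
Response to risperidone (risperidone minus control mean, log2) in A/J on the x axis and in DBA/2J on the y axis, 1 point per gene, with genes at an unadjusted p under 0.05 coloured by direction and the line of equal response. Egr2 and Slc47a1 lie below the line, Hbegf, Klf2 and Tgfb2 above it, and Fos, Ccn1 and Fkbp5 lie nearer to it.

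Egr2, a zinc finger transcription factor of the immediate early class (chromosome 10, 67534469 to 67542188 on GRCm38.p6), had the widest gap among the early genes. Its log2 levels were 8.11, 8.12, 8.4 and 8.54 in A/J control mice and 8.09, 8.0, 8.08 and 8.0 in A/J risperidone mice. In DBA/2J they were 8.8, 9.14, 8.77 and 9.03 in control and 7.56, 8.1, 7.57 and 7.89 in risperidone mice. The DBA/2J control arrays were the highest of the 16 and did not overlap with any other group, while the treated DBA/2J arrays reached the lowest values. The response was -0.25 in A/J and -1.16 in DBA/2J (-0.91 ± 0.18 SE, 95% confidence interval -1.28 to -0.53, adjusted p = 0.222). Both Egr2 probe sets gave it, at -0.91 and -0.89.

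The promoter of Egr2 is shown beside that of Klf2, an early gene of the Krüppel-like family whose strain difference had the opposite sign. RefSeq lists 5 start sites for Egr2, and 4 of their windows, from 250 bases before to 50 after the start, hold a CArG box, the element bound by serum response factor. The first such window on the chromosome is printed, with the CArG box in capitals, beginning at base 179 of 300 (chr10:67537316-67537615, plus strand, GRCm38.p6). The single Klf2 window (chr8:72318812-72319111, plus strand) holds none, and no window of either gene holds the cAMP response element TGACGTCA.
Egr2: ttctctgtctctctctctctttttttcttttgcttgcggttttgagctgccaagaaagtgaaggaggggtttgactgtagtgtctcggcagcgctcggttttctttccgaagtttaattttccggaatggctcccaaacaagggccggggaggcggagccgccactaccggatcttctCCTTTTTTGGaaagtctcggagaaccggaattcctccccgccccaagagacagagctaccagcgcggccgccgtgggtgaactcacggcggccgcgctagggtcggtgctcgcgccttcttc
Klf2: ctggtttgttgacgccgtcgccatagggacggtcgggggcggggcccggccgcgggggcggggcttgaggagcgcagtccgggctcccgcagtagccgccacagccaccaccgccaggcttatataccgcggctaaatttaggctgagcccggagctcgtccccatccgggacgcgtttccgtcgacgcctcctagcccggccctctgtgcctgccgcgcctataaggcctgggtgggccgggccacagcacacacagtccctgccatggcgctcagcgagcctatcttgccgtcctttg
Searched on both strands, a CArG box occurs in 1.63% and TGACGTCA in 1.79% of 32851 windows of this length. Of the 61 early transcription factor and effector genes, 43 have a window, and 2 of those hold a CArG box (4.65%) and 6 the cAMP element (14.0%). Over all 27025 genes with a window the shares were 1.81% and 2.03%.

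The other early genes went in both directions, and those named here had smaller gaps than Egr2. Of 30 immediate early transcription factor genes, 18 had a lower and 12 a higher response in DBA/2J, with a median difference of -0.06. Over all genes 7710 of 17097 were lower. At an unadjusted p under 0.05, 5 of the list were lower and 3 higher. The genes named next all had a lower response in DBA/2J. Egr1, a relative of Egr2, had levels of 10.69, 10.71, 10.43 and 10.65 in A/J control, 10.47, 10.53, 10.35 and 10.48 in A/J risperidone, 11.01, 11.11, 10.89 and 11.24 in DBA/2J control and 10.16, 10.64, 10.34 and 10.57 in DBA/2J risperidone mice. The DBA/2J groups did not overlap and the A/J groups did (-0.47 ± 0.15 SE, adjusted p = 0.413). Fosb, an AP-1 subunit, had a response of 0.11 in A/J and -0.39 in DBA/2J (-0.50 ± 0.15). For Fos, the groups of each strain were separate, and the responses of -0.55 and -0.81 differed by -0.26 (95% confidence interval -0.55 to 0.04). Arc, which regulates AMPA receptor trafficking, gave -0.38 (-0.77 to 0.01) and Ccn1, a secreted matricellular factor, -0.08 (-0.49 to 0.33). All 3 intervals include 0 and reach -0.49 or lower. Without A/J risperidone replicates 1, 2 and 4 the list's median was -0.01, and without the 5 arrays it was 0.04. Without the 5 arrays the differences were -0.22 for Egr1, -0.27 for Fosb, -0.05 for Fos and -0.01 for Arc, while that of Egr2 was -0.84.

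**Figure D2:**
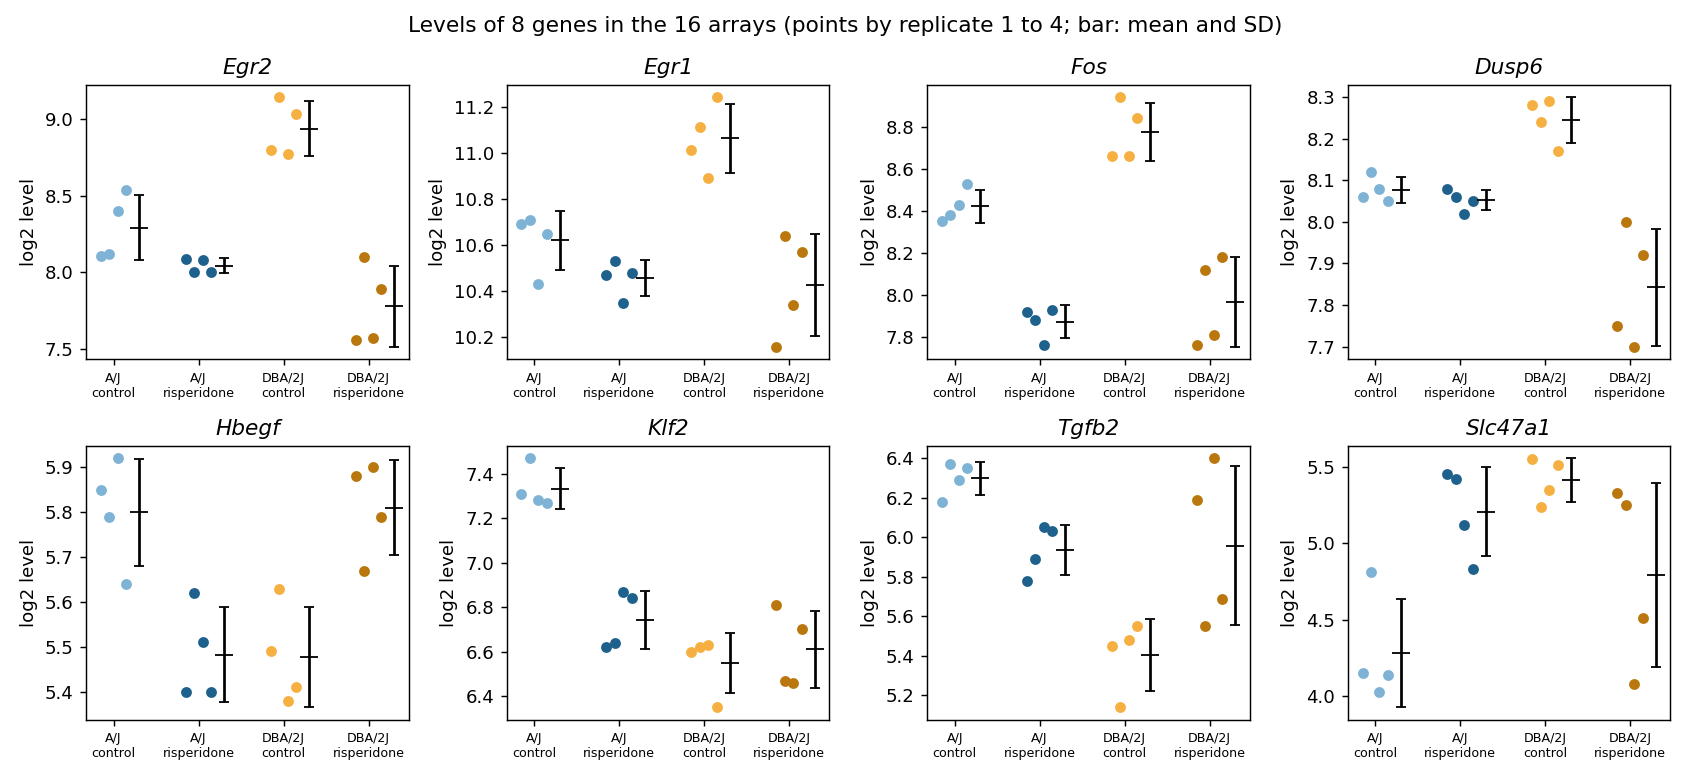
Log2 level (y axis) of 8 genes in each of the 16 arrays, by group, with the mean and SD of 4 arrays beside the points. Egr2, Egr1, Fos and Dusp6 have their highest mean in DBA/2J control mice, Klf2 and Tgfb2 in A/J control mice, and Hbegf is high in A/J control and DBA/2J risperidone mice.

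Genes driven by synaptic activity and the feedback arm of ERK also had list medians below 0. Among 29 activity-induced effectors, 20 had a lower response in DBA/2J (median -0.09), and 3 were lower and 0 higher at an unadjusted p under 0.05. Inhba, the activin subunit gene, had a response of 0.14 in A/J and -0.63 in DBA/2J (-0.76 ± 0.20). Homer1, a postsynaptic scaffold gene with a short activity-induced form, gave -0.48 ± 0.15 (-0.27 without the 5 arrays), and its 5 probe sets ranged from -0.85 to -0.24. Nptx2, a secreted pentraxin that gathers AMPA receptors, gave -0.34 ± 0.14. The median moved to -0.17 without DBA/2J control replicate 4 and to -0.02 without DBA/2J risperidone replicate 1.

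Of 18 MAP kinase phosphatase and ERK feedback genes, 11 had a lower response in DBA/2J (median -0.12), with 4 lower and 1 higher at an unadjusted p under 0.05. Dusp6, a phosphatase that inactivates ERK (chromosome 10, 99263231 to 99267489), had levels of 8.06, 8.12, 8.08 and 8.05 in A/J control and 8.08, 8.06, 8.02 and 8.05 in A/J risperidone mice, and of 8.28, 8.24, 8.29 and 8.17 in DBA/2J control and 7.75, 8.0, 7.7 and 7.92 in DBA/2J risperidone mice. The A/J groups overlapped and the DBA/2J groups were apart (-0.38 ± 0.11 SE, 95% confidence interval -0.60 to -0.15, adjusted p = 0.365). Spred2, an inhibitor of RAS to RAF signalling, gave -0.31 ± 0.10 and Dusp14, another phosphatase, -0.36 ± 0.16 (-0.12 without the 5 arrays). The median of the list was -0.05 without A/J risperidone replicates 1, 2 and 4, -0.07 without A/J control replicate 3 and -0.06 without DBA/2J risperidone replicate 1.

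Hbegf and Tgfb2, which encode secreted growth factors, had a higher response in DBA/2J at an unadjusted p under 0.05 without passing the adjusted test. Hbegf encodes a heparin-binding ligand of the EGF receptor and, by the probe set with the highest mean of each gene, had the smallest p of the genes with a higher response. Its levels were 5.85, 5.79, 5.92 and 5.64 in A/J control and 5.4, 5.62, 5.51 and 5.4 in A/J risperidone mice. In DBA/2J they were 5.49, 5.63, 5.38 and 5.41 in control and 5.88, 5.67, 5.9 and 5.79 in risperidone mice, so that neither strain's groups overlapped and the order was reversed between strains (0.65 ± 0.12 SE, 95% confidence interval 0.39 to 0.91, adjusted p = 0.207). The choice of a gene for its small p favours such separation, and the share of all genes with it was not counted. A further Hbegf probe set gave 0.16. The difference was 0.40 with the gene's probe sets averaged and lay between 0.57 and 0.70 in the other settings run. Egf, a ligand of the same receptor, gave 0.37 ± 0.12 at a low level, between 4.22 and 4.76. Rhbdf1, a rhomboid relative involved in releasing such ligands, gave 0.33 ± 0.15 (0.17 without the 5 arrays). Of 19 ErbB receptor and ligand genes, 12 had a higher response in DBA/2J (median 0.09, and -0.01 with probe sets averaged), with 3 higher and 0 lower at an unadjusted p under 0.05.

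Tgfb2 encodes transforming growth factor beta 2 (chromosome 1, 186622787 to 186709697). It had levels of 6.18, 6.37, 6.29 and 6.35 in A/J control, 5.78, 5.89, 6.05 and 6.03 in A/J risperidone, 5.45, 5.14, 5.48 and 5.55 in DBA/2J control and 6.19, 5.55, 6.4 and 5.69 in DBA/2J risperidone mice. The A/J groups did not overlap, and the DBA/2J risperidone arrays split into 2 high (replicates 1 and 3) and 2 lower ones, of which replicate 2 equalled the highest control and replicate 4 lay above it (0.91 ± 0.21 SE, 95% confidence interval 0.48 to 1.35, adjusted p = 0.28). Among 35 TGF-beta and BMP genes the median was -0.02, with 16 higher and 19 lower, and 4 higher and 3 lower at an unadjusted p under 0.05. Id3, a target of BMP signalling that inhibits basic helix-loop-helix factors, gave 0.38 ± 0.14 and Bmpr1b, a BMP receptor, 0.37 ± 0.14. Klf2 had levels of 7.31, 7.47, 7.28 and 7.27 in A/J control and 6.62, 6.64, 6.87 and 6.84 in A/J risperidone mice, against 6.6, 6.62, 6.63 and 6.35 and 6.81, 6.47, 6.46 and 6.7 in DBA/2J. Only the A/J groups were apart (0.65 ± 0.14 SE, 95% confidence interval 0.36 to 0.94, adjusted p = 0.235), and without the 5 arrays the difference was 0.39. In control mice Klf2 and Tgfb2 were both lower in DBA/2J, so their fall in A/J and the mixed strain signal cannot be fully told apart.

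The mTOR pathway couples growth signals to protein synthesis. Of 23 genes of the mTOR complexes and their outputs, 19 had a higher response in DBA/2J (median 0.13), and 15 of 23 did without DBA/2J control replicate 4 (median 0.07). In the fit of all arrays 1 passed an unadjusted p under 0.05, Mapkap1, an mTORC2 subunit (0.35 ± 0.11; a further probe set gave -0.10). Mtor itself gave -0.08 (-0.28 to 0.12), Akt2, a kinase upstream of mTORC1, -0.35 (-0.73 to 0.03), and Rps6, a ribosomal protein phosphorylated downstream of it, 0.22 (-0.02 to 0.46). Akt2 reached 0.045 without the 5 arrays, and Rps6 was 0.14 without DBA/2J control replicate 4. Prr5l, which binds mTORC2, gave 0.55 (-0.06 to 1.15) and -0.16 without A/J risperidone replicates 1, 2 and 4. Of 35 brakes and inputs of mTORC1, 17 were higher and 18 lower (median below 0.01 in size), with 1 in each direction at an unadjusted p under 0.05. These were Ddit4l, an inhibitor of mTORC1, at -0.64 ± 0.22, and Lamtor2, part of the lysosomal Ragulator, at 0.34 ± 0.14. Sesn3, of the sestrin family that restrains mTORC1, gave 0.27 ± 0.14. Without DBA/2J control replicate 4 Lamtor2 was 0.23 and Sesn3 0.17.

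Most genes for protein synthesis, energy supply and protein breakdown had a higher response in DBA/2J, and these lists moved with 1 array. Over all genes the median difference rose with level, from -0.04 in the lowest quartile to 0.07 in the highest. These lists were not set against genes of like level. The share of all genes with a higher response was 54.7%. Among 71 mitochondrial ribosomal protein genes it was 62 (median 0.20), and 12 were higher and 0 lower at an unadjusted p under 0.05; for other lists these counts stand beside the median in the same order. Of 68 respiratory chain and ATP synthase genes 65 were higher (median 0.19, 5 and 0), of 67 cytosolic ribosomal protein genes 64 (median 0.15, 3 and 0) and of 30 proteasome genes 29 (median 0.16, 3 and 0). DBA/2J control replicate 4 had a mean level of 9.99 over the cytosolic ribosomal list, where its 3 group mates had 10.45 to 10.51, and of 9.55 over the respiratory chain list, where they had 10.005 to 10.034. Without that array the medians were 0.10 for mitochondrial ribosomal (56 of 71 higher), 0.08 for respiratory chain (55 of 68), 0.04 for cytosolic ribosomal (47 of 67) and 0.11 for proteasome genes (25 of 30). Without A/J risperidone replicates 1, 2 and 4 they were 0.23, 0.19, 0.18 and 0.19.

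Single members of these lists show the same array. Mrpl35, a protein of the large mitochondrial ribosomal subunit, had levels of 6.88, 6.72, 6.73 and 6.62 in A/J control and 6.55, 6.67, 6.58 and 6.58 in A/J risperidone mice. In DBA/2J they were 6.22, 6.29, 6.49 and 6.11 in control and 6.62, 6.61, 6.72 and 6.58 in risperidone mice, with no overlap in that strain (0.50 ± 0.12 SE, 95% confidence interval 0.24 to 0.75, adjusted p = 0.331); without DBA/2J control replicate 4 the difference was 0.44. Mrps16 (0.32 ± 0.11), Mrpl43 (0.34 ± 0.12) and Mrps21 (0.45 ± 0.18, 0.27 without that array) belong to the same ribosome. Rpl7, a cytosolic ribosomal protein, gave 0.37 ± 0.17 with all arrays and 0.20 without that array, in which it was at 9.16 against 9.84 to 9.86. Rps19 gave 0.28 ± 0.12, the complex I subunits Ndufa11 and Ndufs3 gave 0.36 ± 0.14 and 0.27 ± 0.10, and the proteasome subunit Psmb5 0.29 ± 0.12. Of 42 translation factor genes 29 were higher (median 0.09, 2 and 0 at an unadjusted p under 0.05), with the elongation factor Eef1b2 at 0.38 ± 0.14 (0.25 without that array).

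**Figure D3:**
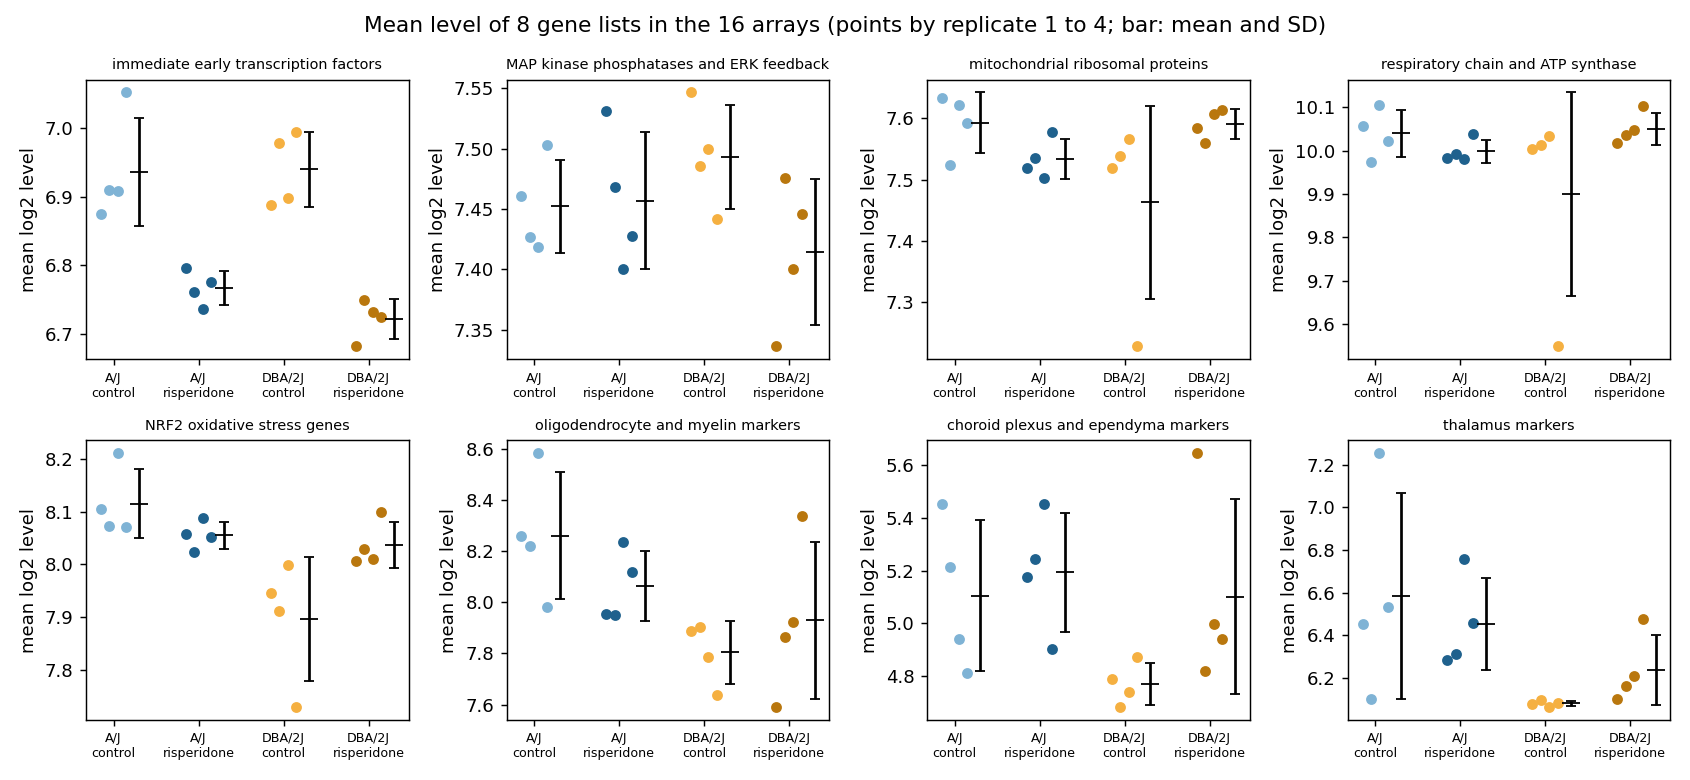
Mean log2 level (y axis) of 8 gene lists in each of the 16 arrays, by group, with the mean and SD of 4 arrays beside the points. DBA/2J control replicate 4 is the lowest array for the mitochondrial ribosomal, respiratory chain and NRF2 lists, and A/J control replicate 3 is the highest for thalamus markers at 7.25.

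Redox and lipid genes gave the same sign. Of 22 targets of NRF2, the regulator of antioxidant defence, 20 had a higher response in DBA/2J (median 0.19), with 6 higher and 0 lower at an unadjusted p under 0.05. Without DBA/2J control replicate 4 the median was 0.13. With the strain share as a covariate it was 0.22, and 1 gene was higher and 0 lower at that threshold. This list, too, was not set against genes of like level. Gsta4, a glutathione transferase, gave 0.42 ± 0.14, with levels of 8.51, 8.31, 8.58 and 8.06 in DBA/2J control and 8.71, 8.65, 8.7 and 8.81 in DBA/2J risperidone mice against 8.72, 8.74, 9.0 and 8.73 and 8.72, 8.73, 8.73 and 8.75 in A/J. Prdx1, a peroxiredoxin, gave 0.34 ± 0.11, Slc7a11, the cystine transporter, 0.40 ± 0.14 and Gclm, of glutathione synthesis, 0.37 ± 0.14. Without the 5 arrays Gsta4 was 0.32, Prdx1 0.22, Slc7a11 0.255 and Gclm 0.26. Of 26 sterol synthesis and SREBP target genes 23 were higher (median 0.11), but 1 passed an unadjusted p under 0.05, the squalene epoxidase gene Sqle (0.27 ± 0.13); without DBA/2J control replicate 4 the median was 0.07. Of 38 ubiquitin ligase genes of the F-box and cullin families, 25 were higher (median 0.11), with 6 higher and 1 lower at an unadjusted p under 0.05; the median was 0.07 without A/J control replicate 1 and 0.05 without DBA/2J control replicate 4. Fbxo45, which marks proteins at synapses for breakdown, had levels of 8.46, 8.34, 8.29 and 8.12 and 8.0, 7.84, 8.08 and 7.86 in A/J control and risperidone mice and of 7.49, 7.47, 7.54 and 7.34 and 7.9, 7.53, 7.78 and 7.71 in DBA/2J. Its difference was 0.63 ± 0.13 with all arrays and 0.40 without the 5 arrays. In control mice Fbxo45 was lower in DBA/2J, so its fall in A/J and the mixed strain signal cannot be fully told apart.

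Stress, clock and immune genes had medians nearer 0. Of 24 heat shock chaperone genes 16 were higher (median 0.08, 1 and 1 at an unadjusted p under 0.05), among them Hspa1b, an inducible HSP70 (0.49 ± 0.18). Of 29 unfolded protein and ATF4 response genes 18 were higher (median 0.06, 2 and 0). Of 19 glucocorticoid-responsive genes 12 were higher (median 0.06, 1 and 0): Mt1, a metallothionein, gave 0.25 ± 0.11, and Fkbp5, whose product tunes the receptor for glucocorticoids, 0.38 (-0.02 to 0.78). Its A/J levels were 6.72, 6.47, 6.88 and 6.79 in control and 7.08, 7.26, 7.14 and 7.11 in risperidone mice, and its DBA/2J levels 6.58, 6.45, 7.01 and 6.33 and 7.56, 7.09, 7.58 and 7.39, apart in both strains. Of 20 clock genes 13 were lower (median -0.06, 0 and 2). Per2, a repressor of the clock, had levels of 6.18, 6.12, 5.91 and 6.52 and 6.62, 6.43, 6.55 and 6.2 in A/J control and risperidone mice against 6.55, 6.52, 6.85 and 6.98 and 6.22, 6.3, 6.07 and 6.45 in DBA/2J, where the groups did not overlap (-0.73 ± 0.19 SE, 95% confidence interval -1.13 to -0.33, adjusted p = 0.349). A further Per2 probe set gave -0.06. Rorb, a nuclear receptor of the clock that is also in the cortical pyramidal neuron list, gave -0.49 ± 0.21. Of 27 interferon and inflammatory genes 18 were lower (median -0.09, 0 and 2), with Ifit1 at -0.47 ± 0.17. Of 18 MHC and antigen processing genes 10 were lower (median -0.03, 1 and 2), with H2-T23 at -0.47 ± 0.19; a further probe set gave 0.12. Of 36 splicing factor genes 20 were lower (median -0.02, 0 and 2).

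Receptors and signal proteins of striatal neurons were mixed. Drd2, the receptor risperidone blocks, had low levels of 4.57, 3.8, 4.55 and 3.89 in A/J control, 4.16, 3.65, 4.09 and 4.07 in A/J risperidone, 3.62, 3.74, 3.79 and 3.72 in DBA/2J control and 4.12, 4.2, 3.89 and 4.9 in DBA/2J risperidone mice (0.77 ± 0.28 SE, 95% confidence interval 0.19 to 1.35, adjusted p = 0.441). The DBA/2J groups did not overlap, and with 3 regional marker scores as covariates the difference was 0.35. Drd2 is itself part of the projection neuron score. Drd1, the receptor of the other projection neuron class, gave 0.28 (-0.06 to 0.62). Pde10a, a striatal phosphodiesterase, gave 0.45 ± 0.15, with 5 probe sets from 0.03 to 0.98, Ppp2r5d, a subunit of protein phosphatase 2A, 0.36 ± 0.11 and Arpp21, a cAMP-regulated phosphoprotein, -0.53 ± 0.16. Of 29 dopamine and cAMP genes 19 were higher (median 0.07, 4 and 1 at an unadjusted p under 0.05), and of 26 projection neuron markers 14 (median 0.05, 4 and 1). Htr2c, a serotonin receptor made in choroid plexus as well as in neurons, gave 1.04 ± 0.39 and 0.43 with the regional scores. Htr4 gave 0.89 ± 0.27 at levels between 3.94 and 5.65. Of 13 serotonin receptor genes 6 were higher (median -0.09, 2 and 0); the median and these 2 differ in sign, and the mean of the list was 0.12. Rgs12 and Rgs8, which speed the shut-off of G proteins, gave 0.62 ± 0.17 and 0.49 ± 0.18 and Rgs6 -0.39 ± 0.17, among 19 RGS genes of which 11 were higher (median 0.07, 2 and 1).

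Transmitter receptor, channel and synapse lists had medians between -0.08 and 0.06. Of 22 glutamate receptor genes 13 were higher (2 and 0 at an unadjusted p under 0.05), with Grm8 at 0.38 ± 0.12 and Grik5 at 0.34 ± 0.13. Of 13 GABA receptor genes 6 were higher (2 and 0), with Gabrg1 at 0.45 ± 0.16 and Gabra5 at 0.39 ± 0.16. Of 35 potassium channel genes 21 were lower (1 and 1), with Kcnh7, of the ether-a-go-go family, at -0.57 ± 0.20. Of 32 synaptic vesicle genes 21 were higher (0 and 1), the lower being Bsn, a scaffold of the active zone (-0.42 ± 0.15; a further probe set gave 0.03). Of 22 postsynaptic scaffold genes 15 were lower (2 and 2). Among 17 neuropeptide genes the median was -0.01 (0 and 3). Crh, corticotropin-releasing hormone, had levels of 7.51, 7.03, 6.64 and 6.94 in A/J control, 7.03, 7.11, 7.06 and 7.19 in A/J risperidone, 7.73, 7.8, 7.6 and 8.02 in DBA/2J control and 6.8, 6.95, 6.66 and 7.39 in DBA/2J risperidone mice, with the DBA/2J groups apart (-0.91 ± 0.23 SE, 95% confidence interval -1.38 to -0.43, adjusted p = 0.343). Vip gave -0.43 ± 0.20 and Penk, the enkephalin gene of D2 neurons, 0.63 (-0.16 to 1.41), which was -0.01 with the regional scores. Penk is itself part of the projection neuron score.

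**Figure D4:**
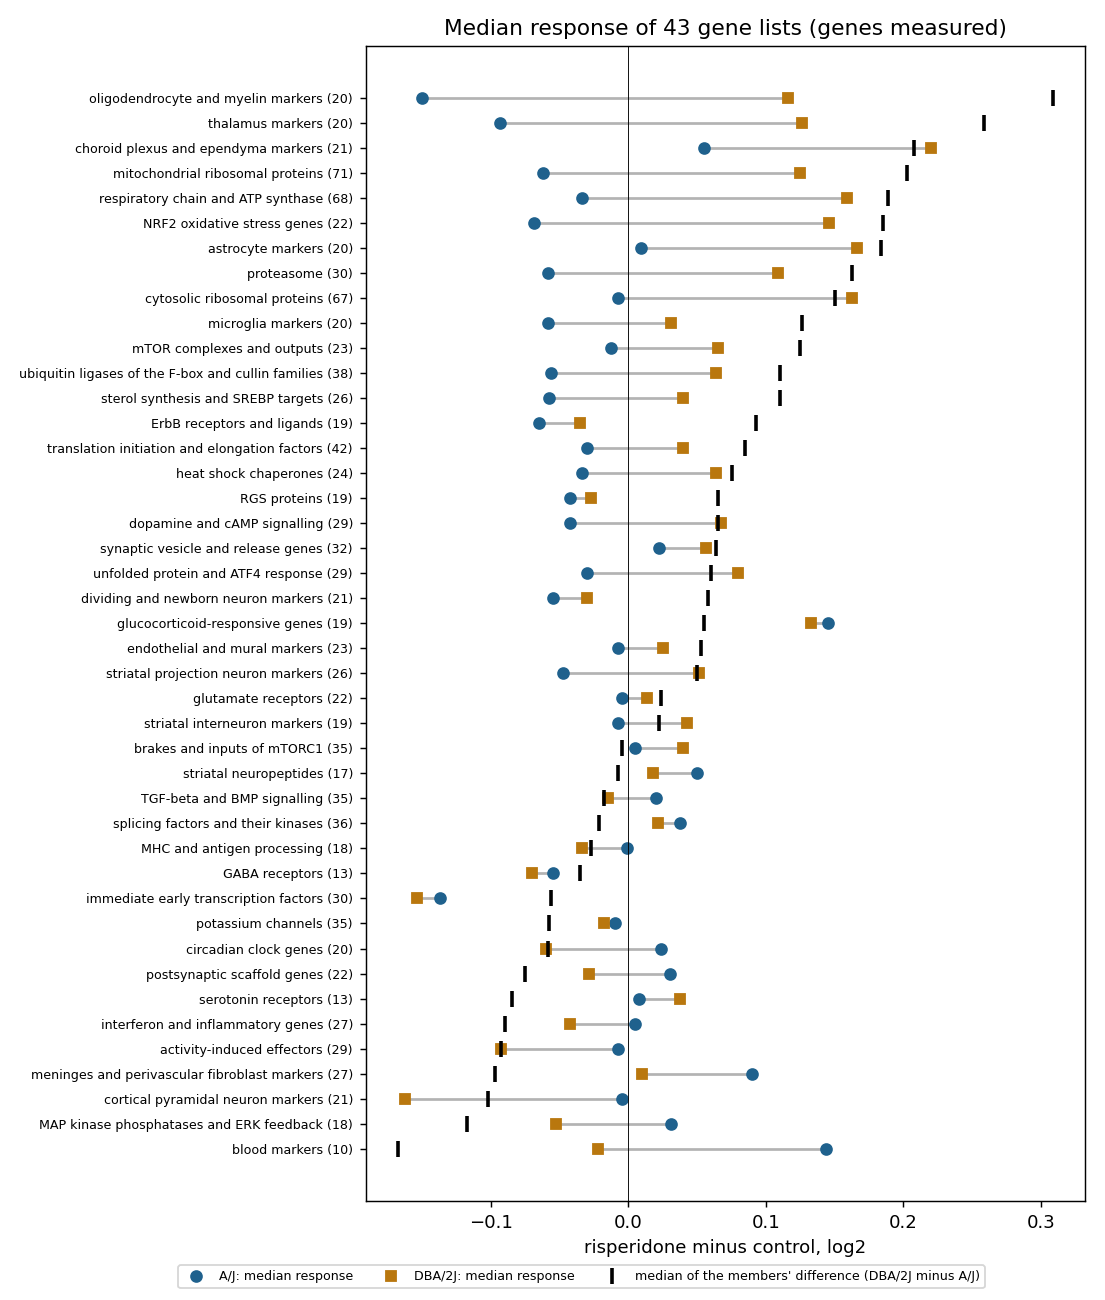
Median response (risperidone minus control, log2, x axis) of 43 gene lists in A/J (circles) and DBA/2J (squares), with the median of the members' strain differences (bars); the number of genes measured is in parentheses. Oligodendrocyte markers have the highest median difference, 0.31, and blood markers the lowest, -0.17.

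Markers of other cell types and regions differed in their list medians, and several of these medians depended on single arrays. Their part in the other results was looked at only with the 3 regional scores as covariates, and as a cause it was not tested. Of 20 oligodendrocyte and myelin genes 19 had a higher response in DBA/2J (median 0.31, 4 and 0 at an unadjusted p under 0.05). Mog, a myelin surface protein, had levels of 7.64, 7.69, 7.93 and 7.17 and 6.98, 6.85, 7.32 and 7.15 in A/J control and risperidone mice and of 6.43, 6.35, 6.28 and 5.69 and 6.16, 6.47, 6.41 and 6.86 in DBA/2J (0.82 ± 0.25 SE, 95% confidence interval 0.29 to 1.35, adjusted p = 0.392), and the groups overlapped in both strains. Mag gave 0.78 ± 0.32 and Ugt8a, of myelin lipid synthesis, 0.69 ± 0.31. The median was 0.15 without DBA/2J risperidone replicate 4, 0.17 without A/J control replicate 3, 0.08 without A/J risperidone replicates 1, 2 and 4, and 0.07 with the regional scores; Mog was 0.51 without the 5 arrays. Of 20 thalamus markers 16 were higher (median 0.26, 2 and 0), with Plekhg1 at 0.75 ± 0.31; the median was -0.04 without those 3 arrays. It was 0.01 without A/J control replicate 3, 0.46 without A/J control replicate 2, 0.17 without A/J risperidone replicate 1 and 0.13 without DBA/2J risperidone replicate 4. Tcf7l2 gave 0.56 (-0.85 to 1.96). Of 21 choroid plexus and ependyma markers 15 were higher (median 0.21, 4 and 0), with Otx2 at 1.04 ± 0.36 and Ccdc153 at 0.47 ± 0.16; the median was 0.03 without DBA/2J risperidone replicate 1, 0.05 without A/J control replicate 1, 0.07 without A/J risperidone replicate 4 and -0.07 without the 5 arrays. Otx2, itself part of the choroid plexus score, was 0.37 with the regional scores. Ttr gave 1.02 with an interval of -2.37 to 4.41. The list means lay between 6.06 and 7.25 for thalamus and between 4.68 and 5.65 for choroid plexus, the latter reaching into the lowest quartile of gene levels.

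Of 20 astrocyte markers 16 were higher (median 0.18, 3 and 1), with Gfap at 0.40 ± 0.13 and S100b at 0.37 ± 0.17. Gfap was 0.14 without A/J risperidone replicates 1, 2 and 4 and 0.10 without the 5 arrays, S100b was 0.15 with the regional scores, and the median was 0.11 without DBA/2J control replicate 2. Of 20 microglia markers 14 were higher (median 0.13, 0 and 0; 0.06 without DBA/2J control replicate 4), and of 23 endothelial and mural markers 13 (median 0.05, 2 and 0), with Acta2 at 0.55 ± 0.25, which was below 0.01 in size with the strain share as a covariate. Of 21 cortical pyramidal neuron markers 16 were lower (median -0.10, 0 and 4); the cortex transcription factor genes Fezf2 and Cux2 gave -0.53 ± 0.14 and -0.34 ± 0.14, and the median was -0.16 without DBA/2J control replicate 3 and -0.06 without DBA/2J risperidone replicate 3. Of 27 meningeal and perivascular fibroblast markers 17 were lower (median -0.10, 0 and 2; -0.37 with the strain share as a covariate), with Foxc1 at -0.50 ± 0.23. Of 10 blood markers 9 were lower (median -0.17, 0 and 1), with S100a8 at -0.70 ± 0.32. Of 19 interneuron markers 10 were higher (median 0.02, 1 and 1), with Calb2 at 0.96 ± 0.34. Calb2 is also in the thalamus list and was 0.57 with the regional scores. Of 21 dividing and newborn neuron markers 11 were higher (median 0.06, 0 and 2), with Tyms, of thymidylate synthesis, at -0.40 ± 0.12.

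Slc47a1, a transporter that exports organic cations and is known from meninges and kidney, had the largest difference of the genes named by p (chromosome 11, 61343400 to 61378842). Its levels were 4.15, 4.81, 4.03 and 4.14 in A/J control, 5.45, 5.42, 5.12 and 4.83 in A/J risperidone, 5.55, 5.24, 5.35 and 5.51 in DBA/2J control and 5.33, 5.25, 4.08 and 4.51 in DBA/2J risperidone mice. All treated A/J arrays lay above the A/J controls, while the DBA/2J groups overlapped (-1.54 ± 0.32 SE, 95% confidence interval -2.22 to -0.86, adjusted p = 0.235). In control mice it was 1.13 higher in DBA/2J. It belongs to the meningeal list, whose mean level lay between 5.94 and 6.39 over the arrays.

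The other genes named for a small p are given by direction, and that choice favours groups that do not overlap. The genes with a higher response were Plpp1, a lipid phosphatase (0.64 ± 0.14), Zc3h6 (0.70 ± 0.16), Ttc39c (0.51 ± 0.11), Cmbl, a hydrolase (0.66 ± 0.15), the zinc finger factor Myt1 (0.72 ± 0.17), the neuronal transcription factor Npas3 (0.58 ± 0.14) and the ubiquitin ligase Siah1b (0.55 ± 0.13). Zc3h6 levels were 5.24, 4.94, 4.74 and 4.65 in DBA/2J control and 5.3, 5.37, 5.3 and 5.3 in DBA/2J risperidone mice, against 5.33, 5.2, 5.31 and 5.19 and 4.74, 5.01, 5.04 and 5.14 in A/J, with no overlap in either strain; its other probe set gave -0.28. Those with a lower response were 4933439C10Rik (-0.81 ± 0.15, adjusted p = 0.207), the secreted protein gene Scube1 (-0.55 ± 0.12), Arhgap26 (-0.55 ± 0.12), Zmat4 (-0.88 ± 0.20), Nlrc3 (-0.67 ± 0.17), and Trim31, Cdcp1, Tedc1 and Hsd3b4 (-0.60 to -0.50, at mean levels of 3.78 to 4.82). Scube1 was 6.09, 6.0, 5.93 and 6.17 in A/J control and 6.33, 6.38, 6.35 and 6.35 in A/J risperidone mice, and 6.56, 6.62, 6.63 and 6.66 and 6.34, 6.48, 6.17 and 6.5 in DBA/2J, so neither strain's groups overlapped. Zmat4 was -0.67 without DBA/2J control replicate 4, where its level was 7.02 against 6.18 to 6.23 in the rest of that group. Without the 5 arrays the differences were 0.37 for Plpp1, 0.42 for Cmbl, 0.46 for Myt1 and -0.36 for Arhgap26.

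Which genes passed depended on the A/J risperidone arrays that were used. Without A/J risperidone replicate 3, the array of that group with a DBA/2J share of 0.58%, 7 genes passed at an adjusted p under 0.05: Pisd-ps3 (-2.89), Pdxdc1 (-1.95), Uqcr10 (-1.90), Tmem64 (-1.79), Sfi1 (-1.21), Ank2 (-1.12) and Phkg1 (-0.85). They were chosen after their values were seen, and each was called by its probe set with the smallest p. In control mice those 7 probe sets were 1.53 to 3.92 higher in DBA/2J than in A/J, each past the adjusted test of strain, and the 3 A/J risperidone arrays that remain have DBA/2J shares of 27.9% to 39.1%. For these genes an A/J response and the mixed strain signal cannot be told apart. With A/J risperidone replicates 1, 2 and 4 left out, 4930519G04Rik passed (-1.43); the single A/J risperidone array that remains is then assumed to vary like the other groups. In every other setting run, including each other single array left out and 5 arrays left out, no gene was called.

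**Figure D5:**
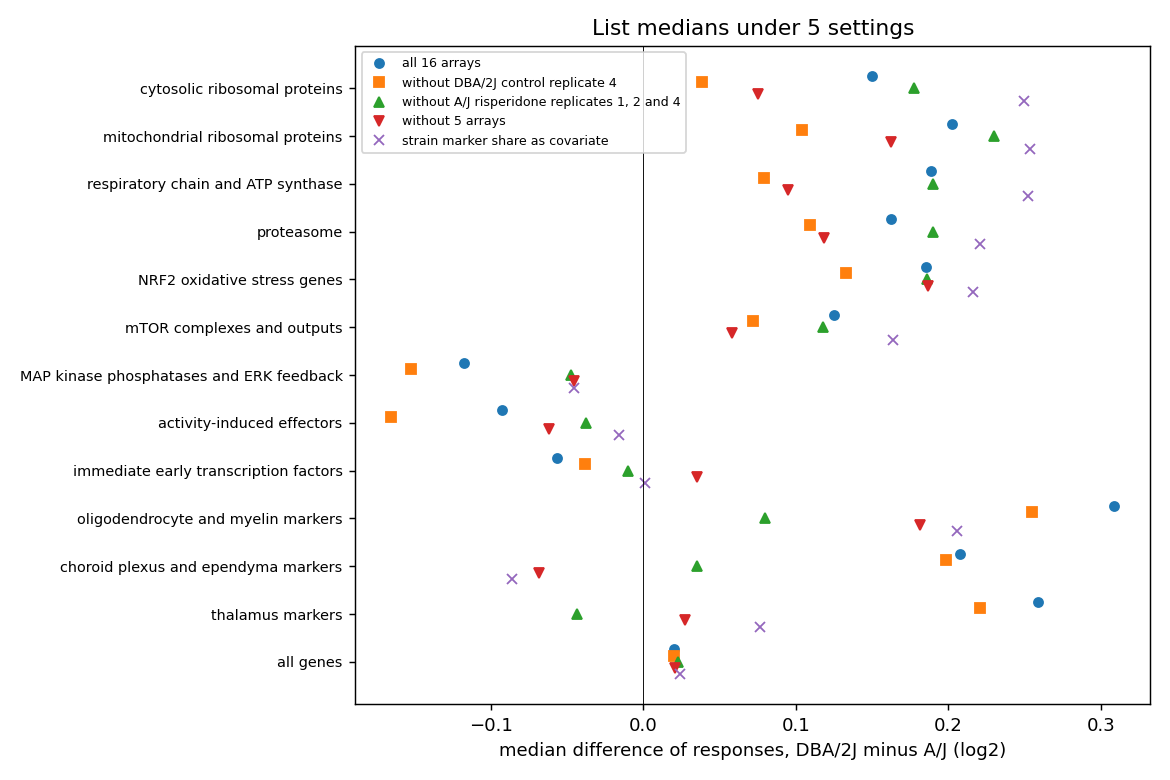
Median strain difference (DBA/2J minus A/J response, log2, x axis) of 12 gene lists and of all genes under 5 settings, 1 symbol per setting. The NRF2 list stays between 0.13 and 0.22, while thalamus and choroid plexus markers lie on both sides of 0.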

How the data were processed

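Affymetrix mouse arrays measured striatal RNA of 16 mice. The deposited values are log2 levels with 2 decimals, which the authors normalised with RMA per the submitters' processing notes; its version and other steps are not given in the sources used here. Array medians lay between 5.66 and 5.71. Using R 4.3.3 and limma 3.58.1 (lmFit, eBayes), 4 group means were estimated from the 16 arrays; matplotlib 3.10.9 drew the figures. Two-sided p-values were adjusted (Benjamini-Hochberg) across the 45037 probe sets, with low levels kept in. A single gene is named by 28898 probe sets, several by 551 and none by 15588. A gene has the values of its own probe set with the highest mean, and is called where any of its own probe sets has an adjusted p under 0.05. SE is limma's.

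The 43 lists (1331 entries, 1176 measured; a gene may be in several) are described by counts and medians. Members and lists were chosen with earlier results of these data known. Named genes are the 12 with the smallest p in each direction, up to 4 members per list, and a fixed set. The strain share is the median position of 46 to 49 strain marker probe sets between the control means of the strains. The 5 arrays left out together were A/J risperidone replicates 1, 2 and 4, DBA/2J control replicate 4 and DBA/2J risperidone replicate 1. Regional scores are mean levels of projection neuron, choroid plexus and thalamus markers. Members of these lists, such as Drd2, Penk, Otx2, Ttr, Tcf7l2 and Calb2, are part of the score they are adjusted for. The fit was tested on simulated data with independent normal values. The simulation held no strain difference, mixed strain signal or outlying array, so it does not cover those.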

Additional observations from a re-analysis of the deposited data

Results flagged for a closer look

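In 30 of 596 groups of 4 arrays, the highest or lowest array lay far from the other 3 by Dixon's test; chance alone sets apart about 1 in 20. DBA/2J control replicate 4 was that array for the log2 levels of Klf2 (6.35), Myt1 (5.83), Zmat4 (7.02), Drd1 (5.85), Rps6 (10.88), Rpl7 (9.16), Eef1b2 (9.20) and Spock3 (5.64). It was also that array for the mean level of dopamine and cAMP signalling (7.74), sterol synthesis and SREBP targets (7.25), circadian clock genes (7.45), cytosolic ribosomal proteins (9.99), mitochondrial ribosomal proteins (7.23) and respiratory chain and ATP synthase (9.55). Whether its RNA or its hybridisation differed was not tested. Single arrays elsewhere were Zc3h6 at 5.37 in DBA/2J risperidone replicate 2, Ttc39c at 6.68 in DBA/2J risperidone replicate 2, Npas3 at 6.36 in A/J risperidone replicate 3, Slc47a1 at 4.81 in A/J control replicate 2, Ttr at 7.38 in A/J risperidone replicate 4, Akt2 at 7.80 in A/J risperidone replicate 3, Ppp2r5d at 7.22 in A/J risperidone replicate 1, Htr2c at 5.32 in DBA/2J control replicate 2, Gabrg1 at 7.08 in A/J control replicate 3, Prdx1 at 9.38 in A/J control replicate 3 and Gsta4 at 9.0 in A/J control replicate 3. Mean list levels set apart in the same way were 7.36 for glucocorticoid-responsive genes in A/J risperidone replicate 3, 7.36 for glucocorticoid-responsive genes in DBA/2J control replicate 3, 7.44 for unfolded protein and ATF4 response in A/J risperidone replicate 4, 7.44 for unfolded protein and ATF4 response in DBA/2J risperidone replicate 4 and 4.99 for interferon and inflammatory genes in DBA/2J risperidone replicate 4.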

How the results depend on the processing

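No gene passed an adjusted p of 0.05 with limma under array rescaling, the filter on low levels, either treatment of a gene's probe sets, robust variances, array weights, the covariates, 5 arrays left out or the removal of probe sets called for strain. The count was 1 without 3 A/J risperidone arrays and lay between 0 and 7 with each array left out in turn, 7 being without A/J risperidone replicate 3. Whether replicate numbers pair the mice cannot be decided from these correlations, and the main fit left pairing out. Of 24 same-number correlations 6 exceeded 0.1, with a mean of 0.033 against -0.011 for other numbers. With the replicate number as a block 0 genes were called and 4304 probe sets, against 4140, were under an unadjusted p of 0.05. Counts at an unadjusted p under 0.05 that moved by over 1.5 times were 2622 in all and 1191 lower among probe sets above the median level; 1478 in all, 883 higher and 595 lower with 1 probe set per gene; 1503 in all, 907 higher and 596 lower with a gene's probe sets averaged. They were 1164 higher with the strain share as covariate; 2723 in all and 1132 higher with 3 regional marker scores as covariates; 2113 in all, 802 higher and 1311 lower without 3 A/J risperidone arrays; 2633 in all, 1134 higher and 1499 lower without 5 arrays. The first 3 of these settings tested fewer features, and the last 2 fewer arrays; the other causes were not tested. Differences that changed sign, none of them called, were with the strain share as covariate Ccn1 (0.071), Ttr (-1.59), Prr5l (-0.087) and Acta2 (-0.00017). Others were with 3 regional marker scores as covariates Ccn1 (0.071), Penk (-0.0090), Ttr (-0.17) and Tcf7l2 (-0.39); without 3 A/J risperidone arrays Ttr (-0.32), Tcf7l2 (-0.11) and Prr5l (-0.16); without 5 arrays Ccn1 (0.011), Ttr (-1.50), Akt2 (0.045) and Prr5l (-0.093). With each array left out in turn, Ccn1 ranged from -0.17 to 0.028, Ttr ranged from -0.087 to 1.87 and Tcf7l2 ranged from -0.022 to 1.03. No gene named by rule passed in any setting. After a second quantile normalization list medians became -0.00078 (GABA receptors), 0.020 (unfolded protein and ATF4 response), -0.053 (splicing factors and their kinases) and 0.014 (dividing and newborn neuron markers). Among probe sets above the median level list medians became 0.024 (serotonin receptors), 0.045 (GABA receptors), 0.045 (MHC and antigen processing), 0.10 (striatal interneuron markers), 0.14 (endothelial and mural markers), -0.35 (blood markers) and 0.10 (dividing and newborn neuron markers). With a gene's probe sets averaged list medians became -0.026 (activity-induced effectors), -0.010 (ErbB receptors and ligands), 0.043 (mTOR complexes and outputs), -0.026 (glutamate receptors) and -0.028 (dividing and newborn neuron markers). With array weights list medians became 0.0037 (serotonin receptors), 0.018 (unfolded protein and ATF4 response), 0.050 (MHC and antigen processing), 0.038 (translation initiation and elongation factors), -0.055 (splicing factors and their kinases), 0.053 (ubiquitin ligases of the F-box and cullin families), 0.14 (striatal projection neuron markers) and 0.063 (microglia markers). With the strain share as covariate list medians became 0.0011 (immediate early transcription factors), -0.016 (activity-induced effectors), -0.045 (MAP kinase phosphatases and ERK feedback), 0.044 (brakes and inputs of mTORC1), -0.0088 (dopamine and cAMP signalling), 0.033 (serotonin receptors), -0.028 (RGS proteins), 0.13 (glutamate receptors), 0.031 (postsynaptic scaffold genes), 0.15 (heat shock chaperones), 0.14 (unfolded protein and ATF4 response), -0.071 (MHC and antigen processing), -0.032 (endothelial and mural markers), -0.086 (choroid plexus and ependyma markers) and -0.37 (meninges and perivascular fibroblast markers). With 3 regional marker scores as covariates list medians became -0.0038 (immediate early transcription factors), -0.078 (TGF-beta and BMP signalling), -0.0021 (serotonin receptors), -0.0092 (RGS proteins), 0.075 (glutamate receptors), -0.0042 (postsynaptic scaffold genes), -0.046 (glucocorticoid-responsive genes), 0.10 (unfolded protein and ATF4 response), -0.046 (interferon and inflammatory genes), 0.012 (MHC and antigen processing), 0.054 (ubiquitin ligases of the F-box and cullin families), -0.094 (striatal interneuron markers), 0.075 (oligodendrocyte and myelin markers), 0.086 (astrocyte markers) and -0.063 (thalamus markers). Without 3 A/J risperidone arrays list medians became -0.048 (MAP kinase phosphatases and ERK feedback), 0.050 (brakes and inputs of mTORC1), 0.010 (dopamine and cAMP signalling), 0.030 (serotonin receptors), -0.0025 (RGS proteins), 0.11 (glutamate receptors), 0.019 (postsynaptic scaffold genes), 0.12 (unfolded protein and ATF4 response), 0.080 (oligodendrocyte and myelin markers), 0.12 (astrocyte markers), 0.030 (microglia markers), -0.015 (endothelial and mural markers) and -0.044 (thalamus markers). Without 5 arrays list medians became 0.035 (immediate early transcription factors), -0.045 (MAP kinase phosphatases and ERK feedback), 0.012 (TGF-beta and BMP signalling), 0.058 (mTOR complexes and outputs), 0.012 (serotonin receptors), 0.021 (RGS proteins), 0.019 (postsynaptic scaffold genes), 0.12 (astrocyte markers), 0.022 (microglia markers), 0.0083 (endothelial and mural markers) and -0.068 (choroid plexus and ependyma markers). Without probe sets called for strain list medians became -0.056 (MAP kinase phosphatases and ERK feedback) and 0.040 (ubiquitin ligases of the F-box and cullin families). With each array left out in turn, list medians that moved beyond their within-group SD ranged from -0.17 to -0.020 (activity-induced effectors), -0.15 to -0.065 (MAP kinase phosphatases and ERK feedback), -0.060 to 0.018 (TGF-beta and BMP signalling), -0.019 to 0.032 (brakes and inputs of mTORC1), 0.024 to 0.13 (dopamine and cAMP signalling), -0.11 to 0.037 (serotonin receptors), -0.0058 to 0.12 (RGS proteins), -0.022 to 0.073 (glutamate receptors), -0.063 to 0.0058 (GABA receptors), -0.0054 to 0.080 (synaptic vesicle and release genes) and 0.0083 to 0.11 (heat shock chaperones). They also ranged from 0.020 to 0.11 (unfolded protein and ATF4 response), -0.12 to -0.032 (interferon and inflammatory genes), -0.13 to 0.066 (MHC and antigen processing), 0.10 to 0.24 (mitochondrial ribosomal proteins), 0.035 to 0.093 (translation initiation and elongation factors), -0.060 to 0.013 (splicing factors and their kinases), 0.054 to 0.13 (ubiquitin ligases of the F-box and cullin families), 0.0033 to 0.16 (striatal projection neuron markers), -0.0058 to 0.090 (striatal interneuron markers), 0.11 to 0.21 (astrocyte markers) and 0.060 to 0.16 (microglia markers). Other list medians moved by less than that SD in every setting not named for them. With 4 arrays per group the median standard error of 0.15 limits what could be called.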
